A study of Homo sapiens with 3 samples.

Results

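The genes examined here encode 7 proteins described as binders of the C-rich DNA strand or of the i-motif (iM), namely HNRNPK, HNRNPLL, PCBP1, PCBP2, PCBP3, PCBP4 and CNBP. They were chosen by name, and their values were taken from RNA-seq tables of 61193 genes by joining transcripts to gene symbols. The RNA came from HEK293T, an immortalised line derived from human embryonic kidney and expressing the large T antigen of SV40, with no treatment or further genetic change named in the labels. There were 3 independent biological replicates of this single condition, so no conditions were compared. Libraries came from a QuantSeq 3′ kit, which primes on poly(A) and yields reads from the 3′ end of transcripts, although the sample labels call the material genomic DNA.

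An iM is a folded form of single-stranded DNA in which Cs pair with protonated Cs, and it can arise opposite a G-quadruplex (G4). HNRNPK and the 4 PCBP proteins carry KH domains, which grip short stretches of C in RNA or single-stranded DNA. HNRNPLL carries RNA recognition motifs and is known both as a splicing regulator of the lymphocyte antigen PTPRC and as a protein bound to the iM of the BCL2 promoter. CNBP is a zinc-knuckle protein that binds single-stranded nucleic acids.

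PCBP2 had the highest listed level of the 7 genes and HNRNPLL the second highest. These are levels of reads assigned to a transcript. How reads shared between transcripts were treated is not given, so the levels do not rank the RNA itself. PCBP3 was close to the limit of counting. HNRNPK, PCBP1, PCBP4 and CNBP were listed at 0 in every replicate. The sections that follow give the C-rich sequences at the start of these genes, the level of each gene, the transcripts that held the counts, and the genes related to them by name, domain or function.

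The promoters of the genes were searched for C-rich sequences that could form an iM. A putative iM sequence was taken as 4 tracts of at least 3 C with loops of 0 to 7 bases on either strand, within the RefSeq window of 250 bases before to 50 bases after the start of the gene on GRCh38.p14. The table held 9 windows for 6 of the 7 genes, and PCBP3 was not among them. Of these 6 genes, HNRNPK and PCBP4 held a match, in 3 of the 9 windows, 2 of which overlap. Over all 35116 promoter windows, 26.8% held one. The bases before the start in both matching windows are printed because they hold every match found among these genes. Capitals mark the tracts, which are C on the strand of HNRNPK and G on the strand of PCBP4, where the Cs lie on the opposite strand.
HNRNPK, chr9:83980616-83980865, minus strand: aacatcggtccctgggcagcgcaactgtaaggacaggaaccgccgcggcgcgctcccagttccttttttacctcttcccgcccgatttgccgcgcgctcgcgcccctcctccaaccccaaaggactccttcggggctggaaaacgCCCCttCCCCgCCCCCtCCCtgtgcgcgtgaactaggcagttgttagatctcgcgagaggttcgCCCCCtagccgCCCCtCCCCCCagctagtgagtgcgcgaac
PCBP4, chr3:51967467-51967716, minus strand: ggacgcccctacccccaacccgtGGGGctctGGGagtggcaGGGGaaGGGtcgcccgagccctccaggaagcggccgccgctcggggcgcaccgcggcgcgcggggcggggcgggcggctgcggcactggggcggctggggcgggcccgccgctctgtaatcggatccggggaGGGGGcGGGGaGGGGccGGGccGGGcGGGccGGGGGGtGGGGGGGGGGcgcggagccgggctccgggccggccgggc

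The HNRNPK window held 2 matches, both on the strand of the gene, beginning 105 and 41 bases before the start. The first of them was 20 bases long and the second 22 bases. The second shows runs of 5, 4 and 6 C and meets the rule because the run of 6 counts as 2 tracts with a loop of 0 bases. A second HNRNPK window held none. The PCBP4 window held 3 matches, beginning 227, 77 and 55 bases before the start, and the nearest of them had a run of 10 C on its strand. A second PCBP4 window shifted by a few bases held the same 3 matches, and the third held none. Percentages of C are for the strand of the gene unless stated. C made up 38.7% of the HNRNPK window, more than in 89.4% of all windows, and 32.7% of the PCBP4 window, more than in 69.9%. On the opposite strand of the PCBP4 window, where its matches lie, C made up 47.3%. G and C together made up 65% and 80% of these windows, more than in 66.8% and 97.4% of all. The windows of PCBP2 and CNBP, with 35.3% and 33.7% C, held more C on the strand of the gene than that of PCBP4. The median over all windows was 28% for C and 58.7% for G and C. The windows of PCBP1, PCBP2, CNBP and HNRNPLL held no match under this rule. A match describes the letters only. No folding or binding was measured in these libraries, and both genes with a match were among the 4 listed at 0.

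The libraries held between 6262175 and 8521624 counts, with 7019253 in replicate 1, and each count is a read assigned to a transcript. The 3 counts that a count of 0 allows equal 0.427, 0.479 and 0.352 CPM (counts per 1000000 of the library) in replicates 1, 2 and 3. Mitochondrial genes took 9.59%, 5.70% and 25.8% of the counts of replicates 1, 2 and 3, so that less of replicate 3 was left for nuclear genes. Of 8 genes used as markers of HEK293T cells, 4 were expressed. CDH2, a cadherin, had 25.4 TPM ± 4.43 (SD, n = 3) and PAX2, a kidney transcription factor, 8.96 TPM ± 3.24, while VIM had 0.656 TPM ± 0.689 and KRT18, NEFL and NEFM had 0 counts. Of 8 markers of other cell types, PTPRC, CD3E, HBA1, HBB and ALB had 0 counts, PECAM1 0, 2 and 1 counts, MYOD1 1.88 TPM ± 0.764 and the collagen gene COL1A1 24.8 TPM ± 0.330. The summed level of these 8 lay between 26.3 and 27.2 TPM in the replicates, and their part in the values of the 7 genes was not tested.

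A gene was called expressed at a mean of at least 1 TPM (transcripts per 1000000, the count divided by transcript length and rescaled). By this rule 2 of the 7 genes were expressed, PCBP2 and HNRNPLL. The same share over all genes was 21.7%, and over the 19926 protein-coding genes 38.2%. In the high category, at or above the third quartile of expressed genes (24.1 TPM), was 1 of the 7, and 12.5% of protein-coding genes. Of the 7 genes, 4 had 0 counts in every replicate, as did 36.5% of protein-coding genes.

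PCBP2 (ENSG00000197111, chr12:53452102-53481162, plus strand) is a regulator of RNA stability and translation that, with PCBP1, also carries iron. It had 381, 333 and 381 counts in replicates 1, 2 and 3, equal to 46.3, 47.95 and 31.4 TPM. Its mean was 41.9 TPM ± 9.10 (SD, n = 3), and it lay in the high category in each replicate. Replicate 3, the library richest in mitochondrial counts, gave the lowest level. With mitochondrial genes left out and the rest rescaled, PCBP2 had 59.9, 56.7 and 56.3 TPM, with a mean of 57.6 ± 1.98, and the 3 replicates then lay close together. Among all 13296 expressed genes, 17.3% had a higher mean TPM than PCBP2, and among expressed protein-coding genes 23.1%.

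HNRNPLL (ENSG00000143889, chr2:38561969-38603586, minus strand) had 25, 18 and 32 counts, equal to 4.25, 2.64 and 3.31 TPM. Its mean was 3.40 TPM ± 0.806 (SD, n = 3), in the medium category, which began above the first quartile of 2.40 TPM. Every replicate placed it in the medium category. Among expressed genes, 65.7% had a higher mean.

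PCBP3 (ENSG00000183570, chr21:45643694-45942454, plus strand) is a paralog of PCBP1 and PCBP2 with a much longer gene. It had 1, 2 and 10 counts, equal to 0.303, 0.441 and 1.74 TPM, with a mean of 0.829 TPM ± 0.794 (SD, n = 3). Replicate 3 alone passed 1 TPM. The exact Poisson 95% intervals of these counts reached from 0.00361 to 0.794 CPM in replicate 1 and from 0.563 to 2.16 CPM in replicate 3, so that they overlapped. The mean passed 1 TPM without replicate 1 (1.09) or without replicate 2 (1.02), and was 0.372 TPM without replicate 3. With all replicates kept and mitochondrial genes left out, its mean was 1.35 TPM ± 1.54. Whether PCBP3 counts as expressed therefore depended on replicate 3 and on the scaling.

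PCBP1 (ENSG00000169564, chr2:70087477-70089203, plus strand) is an intronless gene and the closest paralog of PCBP2. HNRNPK (ENSG00000165119, chr9:83968083-83980631, minus strand) encodes an abundant nuclear ribonucleoprotein. PCBP4 (ENSG00000090097, chr3:51957454-51974016, minus strand) and CNBP (ENSG00000169714, chr3:129167827-129183922, minus strand) complete the set. Each of these 4 had 0 counts and 0 TPM in replicates 1, 2 and 3. The two-sided exact Poisson 95% interval of a count of 0, drawn in the plot of counts, reaches a little higher than the limit of 3 counts given above, to 0.526, 0.589 and 0.433 CPM. PCBP2, at 54.3, 53.2 and 44.7 CPM, lay far above these bounds and HNRNPLL, at 3.56, 2.87 and 3.76 CPM, also above them. The bounds cover counting error only, as reads that lack molecular identifiers may be copies of one another. They also refer to reads that were assigned to a transcript, which the sections on transcripts take up.

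**Figure D1:**
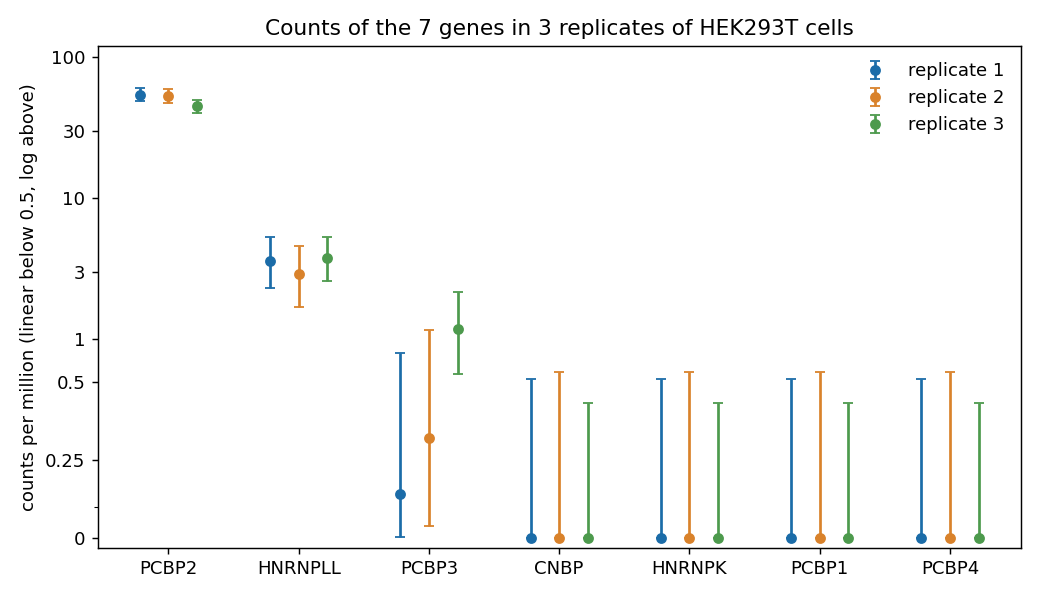
Counts per 1000000 (vertical axis, linear below 0.5 and logarithmic above) of the 7 genes in replicates 1, 2 and 3 of HEK293T cells, with exact Poisson 95% intervals as bars. PCBP2 sits between 44.7 and 54.3 and HNRNPLL between 2.87 and 3.76, PCBP3 differs most between replicates, and CNBP, HNRNPK, PCBP1 and PCBP4 sit at 0.

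The order from PCBP2 to HNRNPLL to PCBP3 held in each replicate. The replicate values of neighbours in this order did not overlap, with 31.4 TPM as the lowest value of PCBP2 against 4.25 as the highest of HNRNPLL, and 2.64 as the lowest of HNRNPLL against 1.74 as the highest of PCBP3. The TPM of PCBP2 was 10.9, 18.2 and 9.50 times that of HNRNPLL in replicates 1, 2 and 3. The TPM of HNRNPLL was 14.03, 5.99 and 1.90 times that of PCBP3. After mitochondrial genes were left out, the ranges of HNRNPLL and PCBP3 touched, at 3.12 TPM in replicate 2 for HNRNPLL and 3.13 TPM in replicate 3 for PCBP3. An exact two-sided sign-flip test on 3 replicates cannot give a p below 0.25, and an exact permutation test of 3 values against 3 none below 0.10, so no test of this order was made. The 4 genes at 0 could not be ranked.

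The replicates of PCBP2 spread less than Poisson counting gives once mitochondrial counts were set aside. Its CPM of nuclear counts was 60.04, 56.4 and 60.3, a coefficient of variation of 3.70%, against 5.24% from Poisson counting alone. For HNRNPLL the coefficient was 25.1% against 20.01%. For PCBP3 it was 112% against 48.1%, with replicate 3 high. A coefficient from 3 replicates is imprecise, and its difference from the Poisson value was not tested for any gene.

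**Figure D2:**
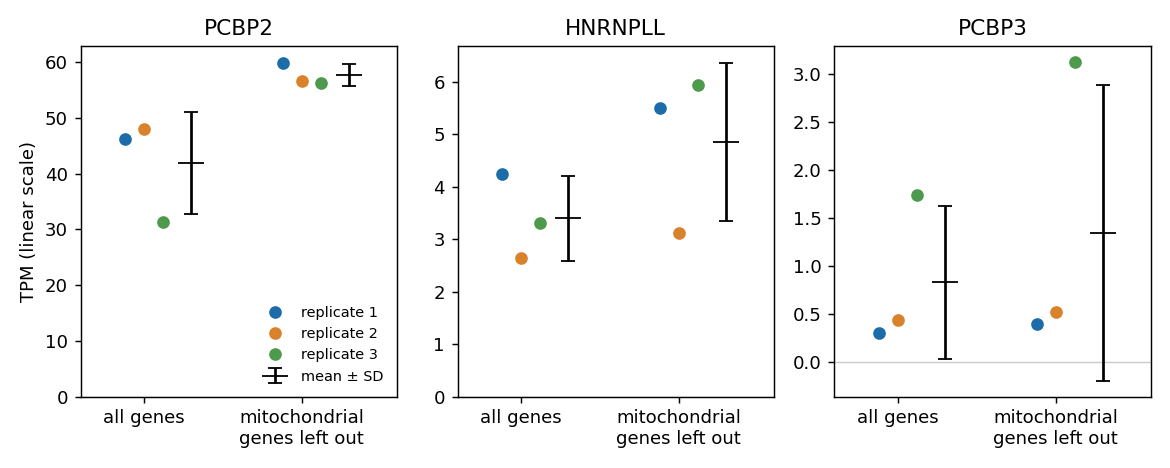
TPM (vertical axis, linear) of PCBP2, HNRNPLL and PCBP3 in replicates 1, 2 and 3, as deposited and with mitochondrial genes left out, with the mean and SD beside the points. Replicate 3 of PCBP2 moves from 31.4, well below the 46.3 and 47.95 of the others, to 56.3, close to them, while replicate 3 of PCBP3 stays apart at both scalings.

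PCBP2 held most of the counts of the set. Its share was 93.6% in replicate 1 (exact Clopper-Pearson 95% interval 90.8% to 95.8%), 94.3% in replicate 2 (91.4% to 96.5%) and 90.1% in replicate 3 (86.8% to 92.8%). The mean was 92.7% ± 2.28 (SD, n = 3). Together the 7 genes took 58.0, 56.4 and 49.6 CPM.

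The tables are by transcript, and the counts of these genes fell on few transcripts. Of 99 listed transcripts of the 7 genes, 9 had any count. PCBP2 had counts on 4 of 26 transcripts, HNRNPLL on 3 of 12 and PCBP3 on 2 of 21. The other genes had 11 listed transcripts (HNRNPK), 18 (PCBP4), 10 (CNBP) and 1 (PCBP1), none with a count. Listed transcripts of a gene overlap, so a read can lie within several of them, and how such reads were treated is not given in the sources used here.

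Counts fell on transcripts with sequence of their own, although most such transcripts had none. The pattern over all matched transcripts was similar. The reads were 75 bases long, and 31 of the 99 transcripts had a run of at least 75 exonic bases that lay in no other listed transcript on either strand. All 9 transcripts with counts were among these 31, and 0 of the 68 others had a count. The shortest run among the 9 was 83 bases. Across all 223558 matched transcripts, 33.2% of the 112189 with such a run had a count, compared with 2.03% of the rest, which held 4.19% of all counts.

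**Figure D3:**
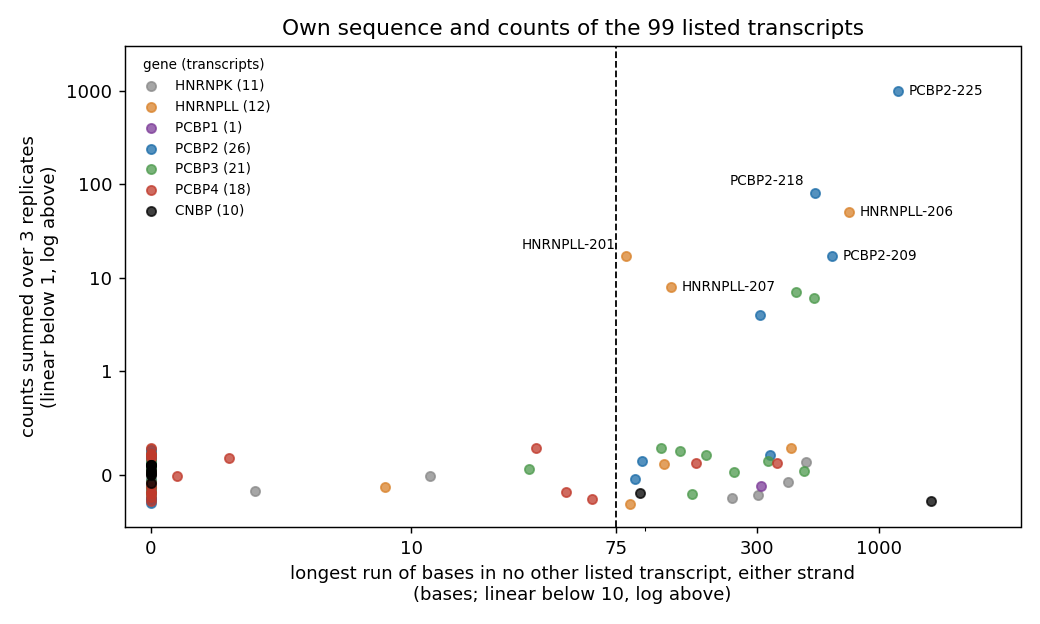
Each point is 1 of the 99 listed transcripts of the 7 genes, with the longest run of bases in no other listed transcript (horizontal axis, bases, linear below 10 and logarithmic above) against the counts summed over 3 replicates (vertical axis, linear below 1 and logarithmic above); points at 0 counts are spread a little around 0 to show them all, and the dashed line marks 75 bases. The 9 transcripts with counts lie to the right of the line, with PCBP2-225 highest at 993 counts.

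PCBP2-225, a protein-coding transcript of 8 exons, held 355, 315 and 323 counts in replicates 1, 2 and 3. Its share of the PCBP2 counts was 90.8% ± 5.31 (SD, n = 3), with 84.8% in replicate 3 as the lowest. It ends at chr12:53476070, within intron 13 of PCBP2-205, the transcript of 14 exons used here as reference, and 5091 bases before the end of that transcript. Of its bases, 1202 in 1 run belonged to no other listed transcript, and they included all of the last 300. PCBP2-218, annotated as a target of nonsense-mediated decay, had 21, 16 and 44 counts, or 7.29% ± 3.71 of the gene. PCBP2-209, with a retained intron, had 5, 2 and 10 counts, and PCBP2-216 had 0, 0 and 4. Replicate 3 was the highest in each of these 3 minor transcripts. PCBP2-205 had 0 counts, and 0% of its last 300 bases were its own.

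HNRNPLL-206, a protein-coding transcript of 7 exons, had 10, 14 and 26 counts, or 66.3% ± 22.9 (SD, n = 3) of the gene. It ends within intron 6 of the canonical HNRNPLL-209, which has 13 exons, 19106 bases before the end of that transcript. A run of 740 of its bases, including its last 300, lay in no other listed transcript. HNRNPLL-201 had 10, 4 and 3 counts with a run of 83 bases, and HNRNPLL-207 had 5, 0 and 3 counts with a run of 129 bases. In neither did the run lie in the last 300 bases. HNRNPLL-206 and HNRNPLL-201 were level in replicate 1 and well apart in replicate 3, where the share of HNRNPLL-206 was 81.2% (exact 95% interval 63.6% to 92.8%). PCBP3-209 had 1, 0 and 6 counts and PCBP3-207 had 0, 2 and 4, both ending within intron 2 of PCBP3-206.

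Stretches close to the ends of both leading transcripts are shown because the libraries were primed on poly(A). A polyadenylation signal is the sequence that marks where RNA is cut and tailed. Capitals mark the signal AATAAA, and each stretch has the strand of its gene on GRCh38. Counted back from the transcript end, the stretch of PCBP2-225 runs from base 40 to base 11. That of HNRNPLL-206 runs from base 30 to base 1, its end.
PCBP2-225, chr12:53476031-53476060, plus strand: tctAATAAAattaggcagcttctgtctgca
HNRNPLL-206, chr2:38581075-38581104, minus strand: agatagaaaAATAAAaggattagaaaggtg

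The signal began 37 bases before the end of PCBP2-225 and 21 bases before the end of HNRNPLL-206. AATAAA or ATTAAA was searched in the last 50 bases on the strand of the transcript. Of all 18753 transcripts with at least 10 counts, 53.3% held it, and of the 74974 with a run of 75 bases and 0 counts 27.2%. PCBP3-209 and PCBP3-207 held none. In the 20 genomic bases past the end, PCBP2-225 had 3 A and HNRNPLL-206 had 4, where the median over transcripts with at least 10 counts was 5. Runs of A in the genome can also be primed, and 7.15% of those transcripts had at least 12 A there. In PCBP2, HNRNPLL and PCBP3, the transcript with the most counts ended in an intron of the reference transcript. That reference is the canonical transcript for HNRNPLL but not for PCBP2 or PCBP3. Among 6695 protein-coding genes with at least 10 counts, the transcript with the most counts ended in an intron of the canonical one in 20.04% and was the canonical one itself in 66.5%.

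**Figure D4:**
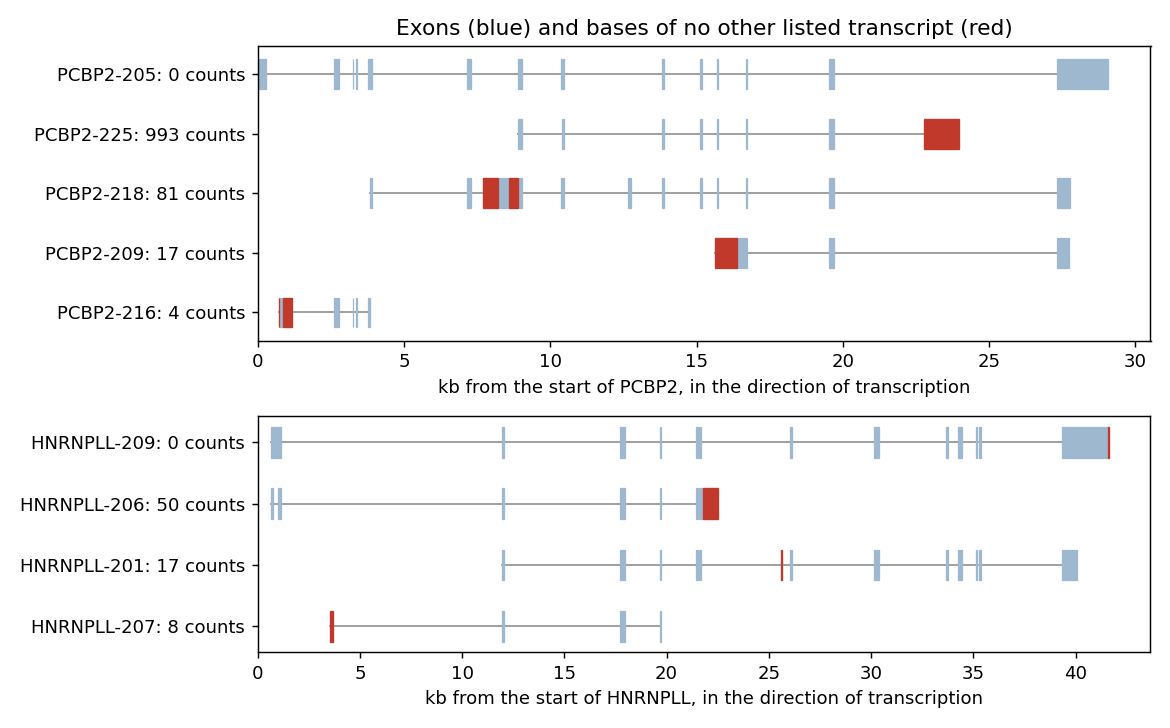
Exons of the reference transcript and of each counted transcript of PCBP2 (top) and HNRNPLL (bottom) along the gene in kb in the direction of transcription, with counts summed over 3 replicates beside each name; blue bars are exons, red bars the bases that no other listed transcript holds on either strand. The red bars of PCBP2-225 (993 counts) and HNRNPLL-206 (50 counts) run to the end of the last exon, and the reference transcripts PCBP2-205 and HNRNPLL-209 have 0 counts.

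The 3′ ends of most of the 7 genes were shared, in genes with counts as in genes at 0. None of the last 300 exonic bases of the reference transcript was its own on the strand of the gene in 4 of the 7 genes, HNRNPK, PCBP2, PCBP3 and CNBP. Of these, PCBP2 and PCBP3 had counts. The share was 3.00% in HNRNPLL, 0.667% in PCBP4 and 100% in PCBP1. Among protein-coding genes, 49.1% of the 5337 with no such base had 0 counts in all replicates, compared with 23.4% of the 5579 whose last 300 bases all lay in 1 listed transcript on either strand. The median of the mean count per replicate was 0.333 in the former and 50 in the latter. These kinds were set by canonical transcripts whose deposited length was that of GENCODE v44. They do not cover all protein-coding genes, so no share of all genes is given beside the 4 of 7. HNRNPK falls in the former kind. CNBP falls in neither, because the length of its canonical transcript differed. By GENCODE v44, 100% of the last 300 bases of that transcript, CNBP-201, were its own. The part of the shared sequence in the zeros was not tested.

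HNRNPK was listed with 11 of 34 transcripts of GENCODE v44. HNRNPK-208 and HNRNPK-209 had ends mostly or wholly their own (84.0% and 100% of the last 300 bases), and both had 0 counts. Neither held AATAAA or ATTAAA in its last 50 bases, and HNRNPK-209 is annotated with a retained intron. CNBP-201, the canonical transcript, was listed with a length of 1664 bases where GENCODE v44 has 3295, so its end in the deposited table is uncertain. PCBP4 had 2 transcripts with a run of at least 75 bases, of 165 and 364 bases, and neither lay in the last 300 bases.

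PCBP1 differed from the other genes at 0. Its only transcript, of 1727 bases, shares no exonic base with another listed transcript on its own strand. On the opposite strand, exons of 12 listed transcripts of PCBP1-AS1 overlap it and cover all of its last 300 bases, leaving 463 bases, with a longest run of 311, in PCBP1 alone. Those 12 transcripts also had 0 counts in every replicate. Of the 239 listed transcripts of PCBP1-AS1, 8 had counts, and the gene had 49, 21 and 44 in all. Of the 231 protein-coding genes with the same arrangement at the last 300 bases, 22.1% had 0 counts, and the median of their mean count was 7.33. Whether the counting used strand is not given in the sources used here. Only if it did not would reads from PCBP1 and from its antisense partner be inseparable over the last 300 bases. The run of 311 bases lies outside the last 300, and the counts are per transcript without positions. The part of the overlap in the zero of PCBP1 was not tested.

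Processed pseudogenes, copies of the mRNA returned to the genome, had counts in the case of HNRNPK, where the gene itself had none. HNRNPKP3 had 48, 29 and 27 counts, HNRNPKP2 15, 15 and 2, HNRNPKP4 4, 24 and 3, HNRNPKP5 0, 0 and 7, and HNRNPKP1 1, 0 and 0. The sums of these 5 were 68, 68 and 39 in replicates 1, 2 and 3, against 0, 0 and 0 for HNRNPK. The copies varied between replicates, and for HNRNPKP2, HNRNPKP4 and HNRNPKP5 1 library stood apart from both others. Of words of 31 bases, 37.1% of those of HNRNPKP4, 25.4% of HNRNPKP2, 14.5% of HNRNPKP1, 2.24% of HNRNPKP5 and 1.54% of HNRNPKP3 also occurred in HNRNPK transcripts. Of words of 75 bases, the read length, the share was 3.42% in HNRNPKP2, 2.74% in HNRNPKP4 and 0 in the others. HNRNPKP3, with the most counts, was thus among those without a shared word of 75 bases. It is annotated as a transcribed processed pseudogene, with 3 listed transcripts over chr11:43120762-43269426. Where along these its counts lie is not known, so they need not be on the copy itself. The counts of these copies are uncertain, and whether any came from HNRNPK RNA was not tested.

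PCBP2P2 had 39, 107 and 27 counts, a mean of 13.5 TPM ± 12.7 (SD, n = 3), with replicate 2 high. It shared 9.82% of its words of 75 bases and 33.9% of its words of 31 bases with PCBP2. PCBP2P1 had 3, 2 and 2 counts, and PCBP2P3 and PCBP2P4 had 0. The 4 copies together had 42, 109 and 29 counts beside 381, 333 and 381 on PCBP2, so PCBP2 stayed above its copies in each replicate. Between the 7 genes themselves no word of 75 bases was shared, and 3 words of 31 bases were shared between PCBP1 and PCBP2.

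Other genes named after the set had few counts. HNRNPK-AS1, antisense to HNRNPK, had 12, 14 and 14, which is 7.18 TPM ± 2.02 (SD, n = 3). PCBP2-OT1, which overlaps PCBP2 on its strand, had 3, 6 and 8, and PCBP3-AS1 had 0.

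Relatives that share the KH domain, the RNA recognition motifs of HNRNPLL or the zinc knuckles of CNBP were listed at levels from 0 to above any of the 7. Of 14 such genes, 9 were expressed and 3 of them were in the high category. KHSRP, a KH protein of RNA decay, had 3181, 3848 and 1562 TPM, and NOVA1, a neuronal splicing regulator, had 59.5, 52.3 and 47.2 TPM. KHDRBS2 was the lowest above 0, with 0.1004 TPM ± 0.0952 (SD, n = 3), and PTBP3 and ZCCHC13 had 0 counts. The median was 4.21 TPM over the 14, against 0.195 TPM over all protein-coding genes and 0 TPM over the 7 genes.

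PCBP1 and PCBP2 deliver iron to ferritin and to iron enzymes. Of 13 genes for their iron partners, 8 were expressed and 4 of these were high, with a median of 3.59 TPM over the list. FTL, the ferritin light chain, had 2047, 2359 and 1308 TPM, and GLRX3, a glutaredoxin, 430, 466 and 249 TPM. Replicate 3 was the lowest for both. NCOA4, the receptor for ferritin turnover, was the lowest above 0, with 0.668 TPM ± 0.424 (SD, n = 3). FTH1, DOHH, BOLA2 and BOLA2B had 0 counts. FTH1 has many processed copies, and BOLA2 and BOLA2B are near-identical, so their zeros are uncertain.

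Of 10 genes described as regulated by one of these proteins, 4 were expressed, of which 3 were high, and the median of the list was 0.254 TPM. ODC1, the first enzyme of polyamine synthesis, had 316, 367 and 185 TPM, and EIF4E, the cap-binding protein, had 90.3, 94.1 and 46.8 TPM. MYC was the lowest above 0, with 3, 14 and 9 counts, or 0.507 TPM ± 0.421 (SD, n = 3). SRC, PTPRC, HBA1, HBA2 and ALOX15 had 0 counts. PTPRC, the globin genes and ALOX15 are genes of blood cells, and HBA1 and HBA2 are near-identical copies. A count of 0 here, also for SRC, means that no read was assigned to a listed transcript. The reason for these zeros was not tested.

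**Figure D5:**
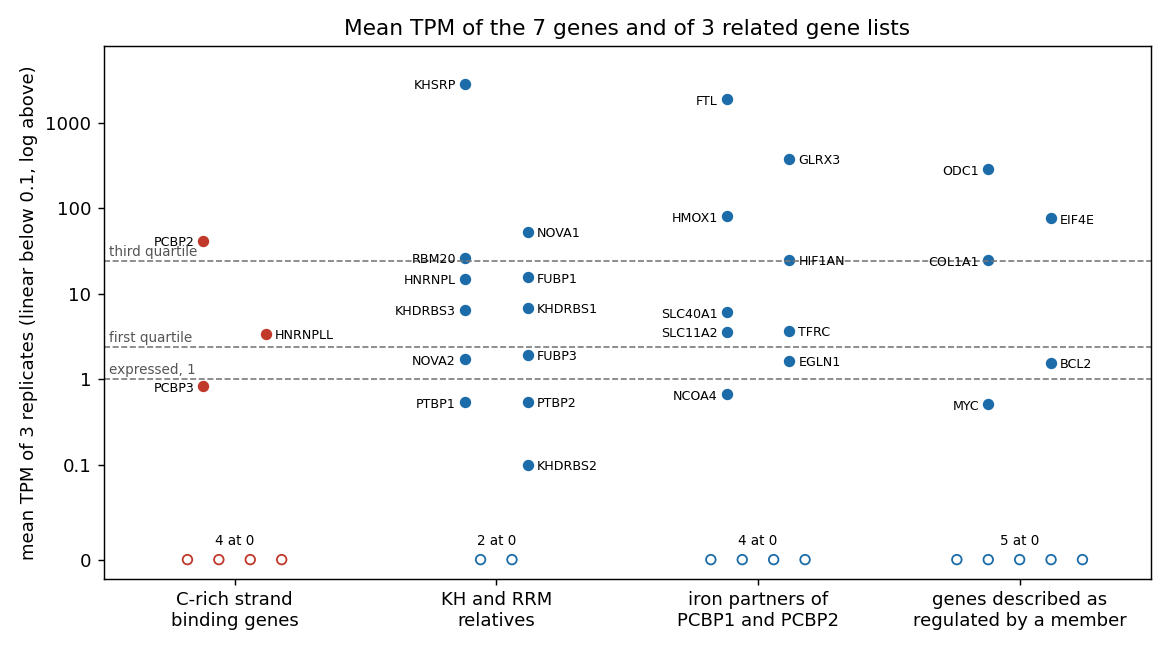
Mean TPM of 3 replicates (vertical axis, linear below 0.1 and logarithmic above) of the 7 genes in red and of 3 related gene lists in blue, with open points for genes with 0 counts and dashed lines at 1 TPM and at both quartiles of expressed genes that set the categories. PCBP2 lies above the third quartile, HNRNPLL between the quartiles and PCBP3 just below 1 TPM, while the lists reach from 0 to KHSRP at 2864 TPM.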

How the data were processed

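RNA-seq of 3 HEK293T replicates was analysed from 1 deposited table per replicate. The submitters' processing notes name Trimmomatic 0.38.0, HISAT2 2.2.1, featureCounts 2.2.1 and hg38, and the settings for shared reads and strand are not given in the sources used here. The deposited counts are whole reads per transcript without normalization. The deposited TPM is the count divided by the deposited length in bases and rescaled per library, checked by recomputing it.

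Of 247541 transcripts, 223558 matched GENCODE v44, and 161 Y copies of pseudoautosomal transcripts were kept only in library totals. Counts and TPM were summed per gene. The members were chosen by name, and the gene lists were written with earlier results of these data known. Named from each list were the 2 highest, the lowest above 0 and those at 0. The reference transcript was the canonical one where its deposited length was that of GENCODE v44, which held for HNRNPK, HNRNPLL and PCBP1, and otherwise the longest protein-coding one with equal length. The category and sequence searches were tested on simulated data. Alternatives were other thresholds, scalings, transcript sets, search rules and each replicate left out. Scripts ran in Python 3.11.15 with pandas 2.3.3, numpy 2.4.6 and scipy 1.17.1.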

Additional observations from a re-analysis of the deposited data

How the results depend on the processing

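The counts and shares given for the 7 genes moved mainly with the threshold, the scaling and the search rule. At 10 TPM as the threshold, 1 gene was expressed and 0 were in the high category, compared with 2 and 1, because the quartiles were then taken over fewer genes. Left-out replicates gave 2 to 3 expressed genes, and 3 were expressed with mitochondrial genes left out. PCBP3 was the gene that entered in each case. The share of counts on PCBP2 was 90.4% of the summed TPM in place of 92.7% of the counts, and 82.9% with pseudogene counts added to their parent genes. Of the 2 neighbouring pairs in the order, 1 did not overlap once mitochondrial genes were left out. Judged by the transcript with the most counts, 2 genes in place of 4 had a 3′ end without bases of their own, since the transcripts chosen then had such bases. Counts fell only on transcripts with a run of their own, so this alternative is not a separate check. Putative iM sequences were found for 4 genes with loops of 0 to 12 bases (5 of 9 windows, and 39.4% of all windows), for 6 with tracts of at least 2 C (9 of 9, and 84.6%) and for 1 with 5 tracts (2 of 9, and 14.4%). PCBP3 had 0 TPM on transcripts of the protein-coding type. No paired analysis was possible because there was a single group. The depth limits PCBP3 and HNRNPLL, with at most 10 and 32 counts per library, and leaves no order among the genes at 0.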
